A study of Mus musculus with 44 samples.

Results

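RING1B peaks of intermediate width that lie on the Polycomb histone mark H3K27me3 were described in cultured mouse blood progenitors. They were taken as the peaks of the RING1B list wider than 2000 bp and at most 5000 bp (end minus start) that shared at least 1 bp with a listed H3K27me3 region. The rule found 2352 of the 24987 RING1B peaks (9.41%). Width and overlap chose them, so both are given as a description. The study's labels describe 44 libraries in 23 groups from cells with and without PCGF1. The 3 peak lists used here come from 6 of those libraries, 2 per list, and values for the others were not analysed here. All 6 are from IdHP cells, haematopoietic progenitors from bone marrow of strain B6CBAF1/J, used at passage 15 to 18 and grown with TSt4 stroma cells in medium holding IL7, SCF and Fl3L. PCGF1 was mapped by its FLAG tag in cells of genotype Pcgf1 -/- + FLAG-PCGF1, in which the only PCGF1 named is the tagged one added back. RING1B (in-house antibody) and H3K27me3 were mapped in Pcgf1 fl/fl cells, where the gene is floxed and not deleted. A share of RING1B peaks that hold PCGF1 therefore sets a pair of cell populations side by side.

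RING1B is the catalytic subunit of Polycomb repressive complex 1 and ubiquitinates histone H2A. PCGF1 defines a variant form of that complex, which is brought to unmethylated CpG-rich DNA by its KDM2B subunit. H3K27me3 is written by Polycomb repressive complex 2, and canonical forms of complex 1 bind it through CBX subunits. In blood progenitors the Polycomb system is known for holding lineage genes silent until differentiation.

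Most RING1B peaks of this width were on the mark. Of the 3238 peaks of 2 to 5 kb, 72.6% lay on H3K27me3 (exact 95% binomial interval 71.1 to 74.2), against 44.3% of the whole RING1B list. The share was 65.5% (63.2 to 67.7) between 2 and 3 kb, 77.1% (74.2 to 79.8) between 3 and 4 kb and 88.0% (85.0 to 90.5) between 4 and 5 kb. It was 46.4% (44.9 to 47.8) just below the range, between 1 and 2 kb, and 91.0% (89.1 to 92.6) just above it, between 5 and 10 kb. Wider peaks span more bases, whose part in this order was not tested. The peaks on the mark spanned 7.48 Mb, 18.8% of all bases under RING1B peaks, and 5.55 Mb of that was listed as H3K27me3. Their number ranged from 59 on chromosome 18 to 248 on chromosome 2, apart from 1 peak on an unplaced sequence. They made up between 6.11% of the RING1B peaks on chromosome 16 and 12.8% on X.

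The overlap was mostly deep, though a part of the peaks barely touched the mark. The median peak on H3K27me3 was covered from end to end, and 1729 of 2352 (73.5%) were covered over at least 50% of their length. At the other end, 84 peaks (3.57%) were covered over less than 10%, and the label "on H3K27me3" is weak for them. By place, 1205 peaks (51.2%, 49.2 to 53.3) lay wholly inside 1 region. Across the border of 1 region lay 851 (36.2%, 34.2 to 38.2), with a median of 1463 bp of the RING1B peak outside the mark. A further 126 (5.36%) held a whole short region within them, and 170 (7.23%) touched 2 regions. The share wholly inside was 66.9% among RING1B peaks of 1 to 2 kb on the mark and 33.9% among those of 5 to 10 kb, with 54.7%, 50.3% and 44.4% for the steps of 1 kb between. Over the whole RING1B list 7314 of 24987 peaks (29.3%) lay wholly inside 1 region. That base includes peaks off the mark, as only 11081 of the 24987 lay on it. The other shares here are of peaks on the mark.

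**Figure D1:**
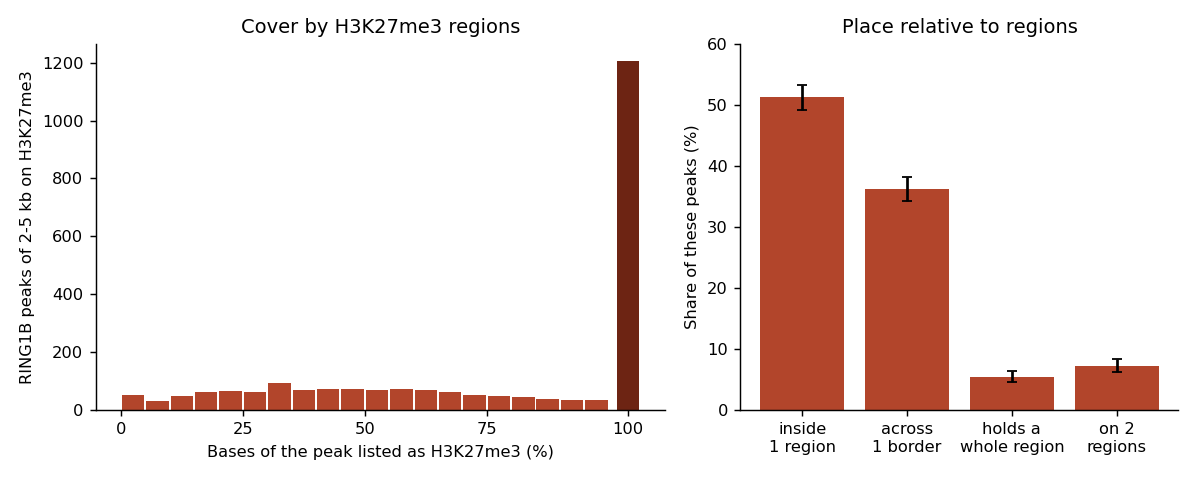
Cover of the 2352 RING1B peaks of 2 to 5 kb on H3K27me3. Left, number of peaks (y axis) by percent of bases listed as H3K27me3 (x axis, steps of 5%, with the 1205 wholly covered peaks as the dark bar at 100). Right, share of the peaks in percent by place relative to the listed regions, with exact 95% binomial intervals; 51.2% lay inside 1 region and 36.2% across 1 border.

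Listed H3K27me3 regions are wider than the stretch of strong signal in them: the median width above the cutoff was 1495 bp in regions with a RING1B peak of 2 to 5 kb, against 210 bp over the whole list, where the median region was 1840 bp wide. Cover here means cover by the listed region. Neighbouring regions were never closer than 1510 bp, so shorter interruptions of the mark cannot appear. In the 170 peaks that touched 2 regions, the unmarked gap between the regions had a median of 1875 bp (1510 to 3740), and its centre lay a median of 307 bp from the centre of the RING1B peak. A peak that touches both regions must span the whole gap, which bounds that distance. The median width of these peaks was 3605 bp. Peaks wholly inside a region took up a median of 15.4% of it (interquartile range 8.61 to 27.6), with a median of 3861 bp from the peak's edge to the nearer region edge.

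The regions that carried these peaks were tall ones of the H3K27me3 list. Height is the authors' highest signal in a region, on a scale that is not stated. The tallest region under each peak had a median height of 117 (interquartile range 89.6 to 152), against 68.5 (56.9 to 84.8) over all 135391 regions. RING1B peaks of all other widths on the mark also had a median of 117, so this height is not particular to the range. On a region among the tallest 10% of the list lay 1440 of the 2352 peaks (61.2%). The peaks used 2228 regions, 1.65% of the list. Of regions up to 2 kb wide 0.406% carried such a peak, of those between 10 and 20 kb 8.02%, and of those wider than 40 kb 30.3% (26.6 to 34.1). A wider region offers more bases to overlap, so that order follows in part from the rule. Per Mb of listed region the number of regions with such a peak was 3.19, 3.82, 5.19, 5.87, 5.72 and 4.88 from the narrowest to the widest class, and 296 and 477 of the 2228 were in the classes up to 2 kb and of 2 to 5 kb. Wide regions are also taller, so heights were set side by side within width classes. Median height was 85.7 in regions of 2 to 5 kb with such a peak and 72.0 in those without. It was 124 and 105 between 10 and 20 kb, and 177 and 153 above 40 kb.

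Many of these peaks had other RING1B peaks close by. Another RING1B peak lay within 5 kb of 1611 of them (68.5%, 66.6 to 70.4), of 54.0% (50.6 to 57.3) of the RING1B peaks of 2 to 5 kb off H3K27me3 and of 51.7% of the whole list. At neighbouring widths on the mark it was at least as common. There 1534 of 2235 peaks of 1 to 2 kb and 761 of 995 peaks of 5 to 10 kb had one within 5 kb. The median distance to the nearest RING1B peak was 1712 bp for the peaks of 2 to 5 kb on the mark, against 4141 bp for those off it. A single H3K27me3 region carried only 1 such peak in 1996 of 2228 cases, 2 in 190 and 3 or more in 42. Sharing a region with another peak of 2 to 5 kb were 522 peaks (22.2%), while 1015 (43.2%) had no other RING1B peak of any width on their region. The region with the most was on chromosome 8, 126061200 to 126152230, with 8 of these peaks among its 30 RING1B peaks. Next were chromosome 6, 52797190 to 52892350, with 7 among 27, and chromosome 5, 92742450 to 92826660, with 6 among 18.

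RING1B enrichment at these peaks was modest and spread over a small range. The authors' fold, a ratio to their caller's background, had a median of 3.40 (interquartile range 3.22 to 3.72; lowest 1.80, highest 8.09). Peaks of 2 to 5 kb off H3K27me3 had a median of 3.53 (3.29 to 4.02; highest 18.3). The log2 difference of the medians was -0.056 (interval -0.080 to -0.028), and the median on the mark was the lower one on 19 of 20 chromosomes. A -log10 q of at least 5 was reached by 250 peaks on the mark (10.6%) and by 191 off it (21.6%), against 9.96% of the whole list. Among those stronger peaks alone the difference in median fold was 0.046 (-0.028 to 0.121). Within the range, wider peaks had higher folds: medians on the mark were 3.32 at 2 to 3 kb, 3.46 at 3 to 4 kb and 3.60 at 4 to 5 kb. These folds come from the list that chose the peaks and are given as a description.

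The PCGF1 list did not enter the rule. A PCGF1 peak lay in 278 of the 2352 RING1B peaks on the mark (11.8%, 10.5 to 13.2), against 158 of the 886 peaks of 2 to 5 kb off it (17.8%, 15.4 to 20.5) and 5.85% of the whole RING1B list, whose peaks are mostly narrower. The share on the mark was 6.01 percentage points lower than off it (Newcombe interval of the difference -8.95 to -3.27). It was lower on 14 of 20 chromosomes and higher on 6. By width the difference was -8.01 points at 2 to 3 kb (-11.6 to -4.65), -4.33 at 3 to 4 kb (-10.5 to 1.00) and -5.53 at 4 to 5 kb (-16.9 to 3.08), so that the intervals of the wider classes include 0. Just below the range, between 1 and 2 kb, the difference was -3.56 points (-5.01 to -2.10). Above the range its sign turned. It was 5.77 points (-2.43 to 11.4) between 5 and 10 kb. Beyond 10 kb it was 26.5 points (5.75 to 30.8), with only 15 peaks off the mark. The gap at 2 to 5 kb was larger at peaks that the mark covers in part. Peaks wholly inside a region differed from those off the mark by -2.73 points (-6.00 to 0.47), the other peaks by -9.46 points (-12.5 to -6.51). Neither difference was matched for width. At 2 to 3 kb PCGF1 was in 12.1% (9.67 to 14.9) of peaks wholly inside, against 17.6% (14.7 to 20.9) off the mark. The shares were 16.1% and 17.5% at 3 to 4 kb, and 22.2% and 20.6% at 4 to 5 kb. With peaks covered over less than 50% counted as off the mark, the difference was -0.22 points (-2.60 to 2.12). It was -2.96 with the taller 50% of regions, -9.19 with regions within 1 kb, -3.31 with the stronger 50% of PCGF1 peaks, and 5.61 (-2.61 to 13.5) among RING1B peaks of -log10 q of at least 5.

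**Figure D2:**
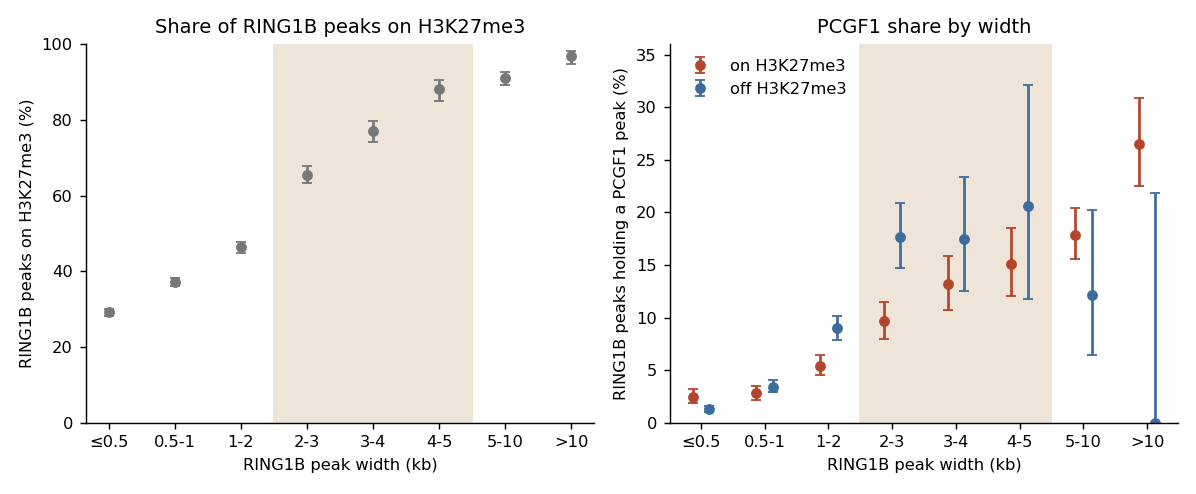
RING1B peaks by width in kb (x axes), with the range of 2 to 5 kb shaded and exact 95% binomial intervals. Left, percent of RING1B peaks on H3K27me3, 65.5% at 2 to 3 kb and 88.0% at 4 to 5 kb. Right, percent that hold a PCGF1 peak, on H3K27me3 (red) and off it (blue). The points on the mark lie below those off it in all 3 shaded classes and at 1 to 2 kb. They lie above them at 5 to 10 kb and beyond 10 kb.

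Where a peak on the mark did hold PCGF1, the PCGF1 peaks were wider. Among the 369 PCGF1 peaks in RING1B peaks on the mark the median was 395 bp wide (interquartile range 166 to 890), against 222.5 bp (116.5 to 452) for the 236 in peaks off it and 224 bp over the PCGF1 list. Their median PCGF1 fold was 4.92 (interval of the median 4.88 to 4.98), against 4.79 (4.74 to 4.82) off the mark. PCGF1 covered 24.3% of the bases of the RING1B peaks that held it on the mark, and 18.1% off it. Most of these RING1B peaks held 1 PCGF1 peak (208), 54 held 2, and 16 held 3 or more. Those with 1 were themselves wider, with a median of 3276.5 bp against 2501 bp off the mark. PCGF1 widths were not compared within classes of RING1B width. Of the 370 pairs of a PCGF1 peak with a RING1B peak on the mark, 228 (61.6%) had the PCGF1 centre within 50% of the distance from RING1B centre to edge, against 61.4% off the mark. In the RING1B peaks that were marked in part, 62 of 120 PCGF1 centres (51.7%, 42.4 to 60.9) fell in the marked stretch, which made up 53.0% of the bases of those peaks.

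PCGF1 was unevenly spread among the peaks on the mark. By place, it was in 15.1% (13.1 to 17.3) of those inside 1 region, 9.05% (7.21 to 11.2) of those across 1 border, 7.94% (3.87 to 14.1) of those that held a whole region and 5.29% (2.45 to 9.81) of those on 2 regions. Inside and across a border differed by 6.06 points (3.20 to 8.81). By width it was 5.49 points (1.91 to 8.88) at 2 to 3 kb, 4.62 (-1.16 to 10.1) at 3 to 4 kb and 10.3 (2.74 to 17.5) at 4 to 5 kb. Among peaks of -log10 q of at least 5 it was 9.26 (-2.91 to 20.5), so that the intervals of that setting and of 3 to 4 kb include 0. It was above 0 on 14 of 20 chromosomes. Place moved together with height, whose median was 141 for peaks inside a region and 95.9 for those across a border. For a split by height, peaks inside a region were set beside all the rest, with unsplit shares of 15.1% and 8.37%. In the tallest 25% of peaks PCGF1 was in 24.2% (20.4 to 28.2) of those inside and 24.0% (16.0 to 33.6) of the rest. The rest there were 100 peaks and wider, with a median of 3526 bp against 3075 bp. In the other 75% the shares were 8.93% (6.94 to 11.3) and 6.88% (5.42 to 8.58). Median heights there were still 118 inside and 91.4 for the rest, so height was held only in part.

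The height of the mark also separated the peaks by their PCGF1 share. Ordered by the height of their tallest region into 4 equal groups of 588, PCGF1 was in 6.63% (4.76 to 8.96) of the lowest group, 5.95% (4.18 to 8.18) of the next, 10.5% (8.18 to 13.3) of the third and 24.1% (20.7 to 27.8) of the tallest, whose heights ran from 152 to 1111. The tallest group exceeded the lowest by 17.5 points (13.5 to 21.5), and did so on 18 of 20 chromosomes. Among peaks of -log10 q of at least 5, ordered anew into 4 groups, the difference was 29.3 points (13.5 to 43.3). The tallest group of 588 exceeded the peaks off the mark by 6.32 points (2.09 to 10.6). That difference was not matched for width, whose median was 3192 bp in the tallest group and 2596 bp off the mark. RING1B fold differed little between these groups, with medians of 3.42, 3.38, 3.36 and 3.46 from the lowest to the tallest. Region width moved with height, with medians of 3010, 7640, 15125 and 30560 bp. Among peaks inside regions up to 10 kb wide, PCGF1 was in 18.1% (12.1 to 25.6) of the taller 50% and 4.32% (1.6 to 9.16) of the lower 50%. In regions of 10 to 20 kb the shares were 23.5% and 6.47%, in those of 20 to 40 kb 22.5% and 9.32%, and in wider ones 25% (17.9 to 33.3) and 11.9% (6.93 to 18.5). RING1B peaks of neighbouring widths on the mark showed the same order by height. In the height ranges of the tallest and lowest groups, the shares were 11.0% and 3.11% at 1 to 2 kb. At 5 to 10 kb they were 32.3% and 10.5%.

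RING1B fold separated them too. PCGF1 was in 3.74% (2.36 to 5.61) of the 25% of peaks on the mark with the lowest fold, then in 8.67% and 11.6%. The 25% of highest fold held it in 23.3% (19.9 to 26.9) and were also wider (median 3567 bp, against 2669 bp in the lowest). Peaks off the mark in the same ranges of fold held PCGF1 in 8.07%, 13.8%, 18.0% and 24.5%. The difference, on minus off the mark, was -4.33 points (-9.73 to -0.55) in the lowest range, -5.14 (-11.3 to -0.16) and -6.48 (-12.8 to -1.03) in the next ranges and -1.18 (-7.01 to 4.39) in the highest.

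**Figure D3:**
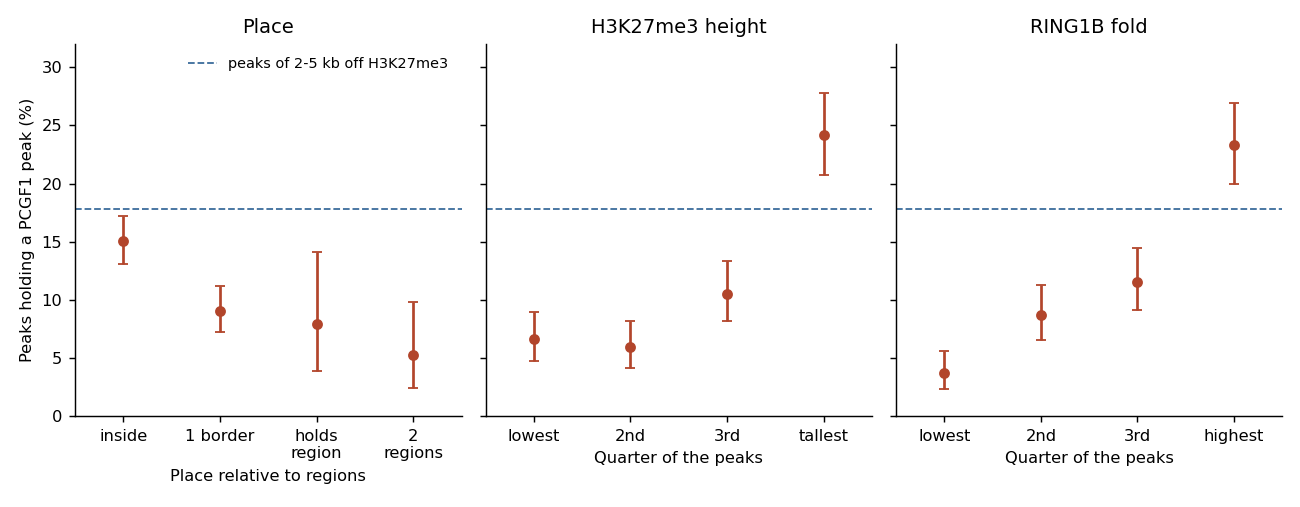
Percent of RING1B peaks of 2 to 5 kb on H3K27me3 that hold a PCGF1 peak (y axes), with exact 95% binomial intervals, by place relative to regions, by 4 equal groups of H3K27me3 height and by 4 equal groups of RING1B fold. The dashed line is the 17.8% of peaks off H3K27me3; only the tallest group (24.1%) and the group of highest fold (23.3%) lie above it.

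PCGF1 was more frequent in RING1B peaks that stood apart from others. It was in 171 of the 741 peaks on the mark with no RING1B peak within 5 kb (23.1%, 20.1 to 26.3), against 107 of the 1611 with one (6.64%, 5.47 to 7.97), a difference of 16.4 points (13.3 to 19.8). The difference was above 0 on 17 of 20 chromosomes. It was 26.02 points among peaks of -log10 q of at least 5 and 10.9 with the stronger 50% of PCGF1 peaks. With the nearest RING1B peak up to 2 kb away 5.86% (4.63 to 7.31) held PCGF1. The share was 9.46% (6.60 to 13.02) at 2 to 5 kb, 11.0% (7.26 to 15.8) at 5 to 10 kb, 22.0% (17.6 to 26.8) at 10 to 50 kb and 39.8% (32.7 to 47.2) beyond 50 kb. The same order was seen off the mark. Off H3K27me3 the shares over the same distances were 6.38%, 15.4%, 19.2%, 30.04% and 32.6% (22.8 to 43.5), and the difference at 5 kb was 18.7 points (13.7 to 23.8). Set side by side at 5 kb, peaks on and off the mark had differences whose intervals include 0. With no RING1B peak within 5 kb the difference, on minus off, was -4.86 points (-10.2 to 0.34), and with one it was -2.56 points (-5.70 to 0.07).

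Lone and grouped peaks on the mark differed little in height and place. With no RING1B peak within 5 kb, median height was 116 and 53.7% lay inside 1 region, against 117 and 50.1% with one. Their median folds were 3.48 and 3.37 and their median widths 2950 and 3043 bp. The order by height was seen in both classes. Among lone peaks PCGF1 was in 37.8% (31.0 to 45.1) of those in the tallest group of height and 13.7% (9.04 to 19.5) of those in the lowest. Among peaks with a RING1B neighbour it was in 17.5% (13.9 to 21.6) of the tallest group and 3.46% (1.90 to 5.73) of the lowest. Lone peaks of the tallest group exceeded lone peaks off the mark by 9.88 points (1.92 to 18.0). Their median widths were 3014 and 2505.5 bp, and the difference was not matched for width. At neighbouring widths on the mark the order was the same: at 1 to 2 kb 9.70% (7.61 to 12.1) of lone and 3.46% (2.60 to 4.50) of grouped peaks held PCGF1, and at 5 to 10 kb 33.3% (27.3 to 39.8) and 13.1% (10.8 to 15.7).

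**Figure D4:**
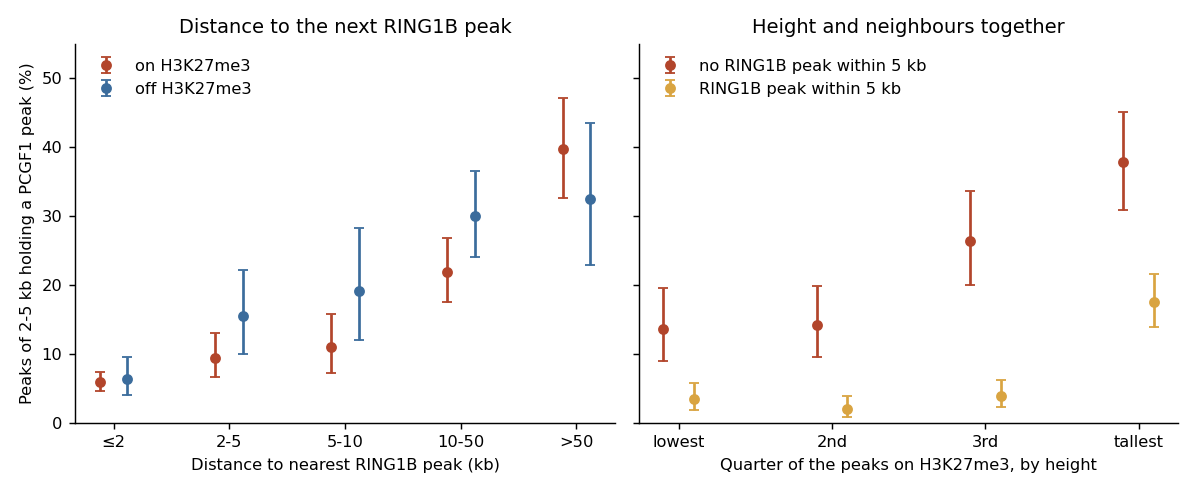
Percent of RING1B peaks of 2 to 5 kb that hold a PCGF1 peak (y axis), with exact 95% binomial intervals. Left, by distance to the nearest RING1B peak in kb, on H3K27me3 (red) and off it (blue), where the share on the mark is 5.86% up to 2 kb and 39.8% beyond 50 kb. Right, peaks on the mark in 4 equal groups of H3K27me3 height, with no RING1B peak within 5 kb (red) and with one (yellow); red lies above yellow in each group.

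Chromosomes differed in how often these peaks held PCGF1. The share was highest on chromosome 8, 24 of 65 peaks (36.9%, 25.3 to 49.8), and lowest on X, 1 of 80 (1.25%, 0.03 to 6.77). On the other chromosomes it ran from 6.28% on chromosome 1 to 17.5% on chromosome 15. Peaks of 2 to 5 kb off the mark were also high on chromosome 8 and low on X. PCGF1 was in 12 of 39 (30.8%, 17.0 to 47.6) on chromosome 8 and 0 of 20 on X. On chromosome 19 PCGF1 was in 10 of 119 peaks on the mark (8.40%, 4.10 to 14.9), against 16 of 44 off it (36.4%, 22.4 to 52.2), the widest gap among the 20 chromosomes. Chromosome 14 (11.0% and 36.1%) and chromosome 18 (15.3% and 35.5%) showed the same order. All 8 peaks in the dense region of chromosome 8 held PCGF1, at a median RING1B fold of 3.08. They had 18 overlaps with PCGF1 peaks, where a PCGF1 peak that reaches several of them counts for each. That region's copy number was not analysed here, and without it the tallest group of height held PCGF1 in 23.1% (19.7 to 26.8) of its peaks. Median cover was 65.5% and median height 97.8 for the peaks on X, and 62.6% and 97.7 for those on chromosome 16, where 9.84% held PCGF1.

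**Figure D5:**
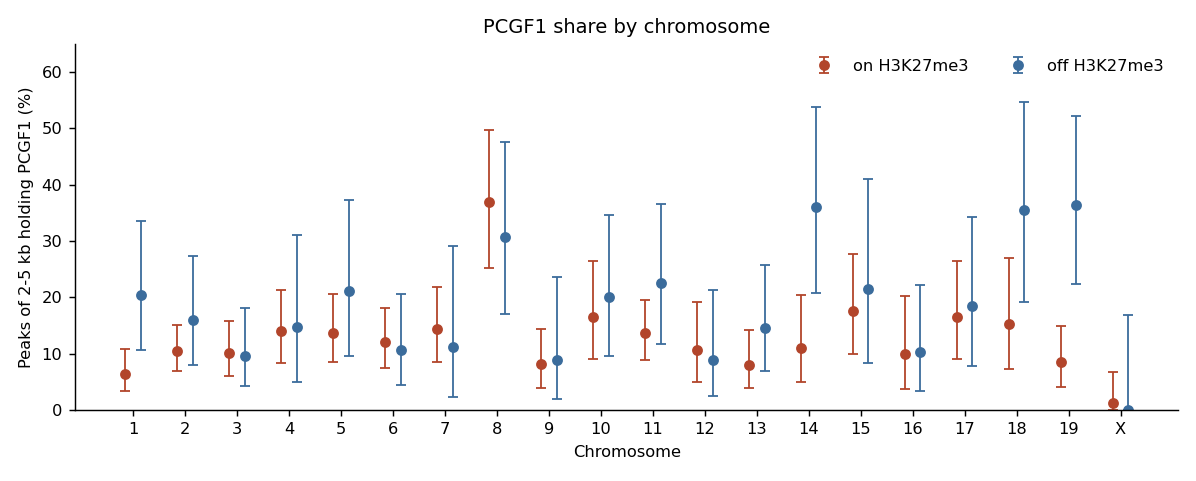
Percent of RING1B peaks of 2 to 5 kb that hold a PCGF1 peak (y axis) on each chromosome (x axis), on H3K27me3 (red) and off it (blue), with exact 95% binomial intervals. Chromosome 8 has the highest share on the mark (36.9%), and chromosome 19 the widest gap between the colours.

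Single peaks are given by 1-based position in build mm9. The highest RING1B fold, 8.09, was at chromosome 2, 143737577 to 143742245, a peak of 4669 bp that ran across the border of a region of height 106 and held 1 PCGF1 peak. The next were at chromosome 16, 95803865 to 95807579 (fold 7.71, inside a region of 5130 bp, no PCGF1), and at chromosome X, 103676722 to 103681207 (fold 7.50, across a border, no PCGF1). The 10 highest folds ran from 6.87 to 8.09. Of those 10 peaks 7 lay inside a region, 8 were wider than 4000 bp and 3 held PCGF1. The only peak of the 10 with more than 1 PCGF1 peak was at chromosome 8, 23166981 to 23171141, with fold 7.20 and 2 PCGF1 peaks.

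The peak with the most PCGF1 peaks, 6, was at chromosome 15, 98619987 to 98624740, wholly inside a region of 11050 bp and height 245, with a RING1B fold of 4.30. Peaks with 4 lay at chromosome 14, 106294319 to 106298413 (on 2 regions, height 74.2), chromosome 19, 32460793 to 32464237 (height 124), and chromosome 8, 126077619 to 126079833, in the dense region. The highest PCGF1 fold, 6.35, was in the peak at chromosome 5, 65359787 to 65363848, where the RING1B fold was 3.36. The next, 6.32, was at chromosome 2, 173099569 to 173103297, with a RING1B fold of 4.04. All 5 peaks with the highest PCGF1 folds lay inside 1 region, 4 of them in regions of 17600 bp or wider.

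The tallest region under any of these peaks, of height 1111, held the peak at chromosome 16, 3114351 to 3116639. Its RING1B fold of 1.80 was the lowest of all 2352, and its PCGF1 fold was 2.35, against a median of 4.92. The next tallest, of height 838, held the peak at chromosome 11, 88827883 to 88832431, with a RING1B fold of 4.17, the highest -log10 q of the set (24.9) and no PCGF1. The other 3 of the 5 peaks on the tallest regions were in the dense region of chromosome 8. In all, 12 peaks lay on regions of height 400 or more.

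Peaks near the limits of the rule are given for comparison. The narrowest, both of 2001 bp, had folds of 3.41 and 3.10, and the widest on the mark below the lower limit, both of 2000 bp, 4.003 and 2.97. The widest, of 5000 and 4995 bp, had folds of 3.69 and 3.65, and the narrowest above the upper limit, of 5003 and 5004 bp, 3.21 and 3.65. The smallest overlaps were 6 bp, at chromosome 4, 33196492 to 33198886, and 7 bp, at chromosome 9, 77490324 to 77492407. Off the mark, the nearest peak abutted a region and the next lay 5 bp from one, while the median distance to a region was 3498 bp.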

How the data were processed

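Peaks came from the authors' deposited lists, each made from 2 libraries. Builds mm9 and dm3 stand in the submitters' processing notes beside Bowtie2, Picard and SAMtools 1.6.0, and mouse positions are read here as mm9. Sources used here name no peak caller, threshold, control or pooling. In the deposited broadPeak lists the fold is a ratio to the caller's background, and the -log10 q is its significance. The deposited score is the -log10 q times 10, rounded down, and was not used further. The H3K27me3 list holds, per the file headers, a signal height and a width above the cutoff, in bases, a quantity of another kind. Its positions run in steps of 10 bp and its lowest height is 40.

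Peaks were compared as half-open intervals sharing at least 1 bp, in Python 3.11.15 with pandas 2.3.3 and scipy 1.17.1. The interval arithmetic was tested on simulated data. Shares have exact 95% binomial (Clopper-Pearson) intervals, differences of shares Newcombe intervals, and medians order-statistic intervals. The interval of a log2 difference of medians joins the opposite ends of both medians' intervals, and is not a 95% interval of the difference. All these intervals cover counting error only: read depth is unknown, and peaks are not replicates. No test was run, since no list gives a value for a single library. The peaks, the classes and the rule for naming sites (the 10 highest RING1B folds and 5 each by number of PCGF1 peaks, PCGF1 fold and H3K27me3 height) were chosen with earlier results of these data known. The differences in PCGF1 share by neighbour, height and place were chosen as results after seeing the data. The gene table used with this work is of another build, so genes, promoters, sequence and cell type markers were not analysed here.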

Additional observations from a re-analysis of the deposited data

How the results depend on the processing

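Of 67 recomputed values 47 stayed within the interval of the value as reported, 18 left it with the same sign and 2 turned. The share of RING1B peaks of 2 to 5 kb on H3K27me3 was 53.4% with 50% of the peak covered, 79.2% with a region within 1 kb, 66.8% with the taller 50% of regions and 56.7% at a -log10 q of at least 5. Under those settings, in the same order, the difference in PCGF1 share, on minus off the mark, was -0.22, -9.19, -2.96 and 5.61 points. At that -log10 q the log2 difference in median RING1B fold turned to 0.046. The difference by height at the same setting, with its groups drawn anew, was 29.3 points (13.5 to 43.3). That by place was 9.26 (-2.91 to 20.5) and that by RING1B neighbour 26.02. The cause of these changes was not tested. The difference by place was 10.3 points at 4 to 5 kb and 4.62 (-1.16 to 10.1) at 3 to 4 kb. The difference by neighbour was 10.9 points with the stronger 50% of PCGF1 peaks, 12.4 at 2 to 3 kb, 21.8 at 3 to 4 kb, 12.9 with a neighbour distance of 2 kb and 21.2 with 10 kb. The share with a RING1B neighbour was 53.7% within 2 kb and 78.1% within 10 kb, by construction. Leaving out chromosome 8, its dense region or regions of height 400 or more, and the differences in PCGF1 share by height, place and neighbour with all their settings, were chosen after seeing the data. Joining H3K27me3 regions less than 1 kb apart changed nothing, since none are. Alternatives for gene starts and CpG content were not run, for want of a genome of the files' build. No paired analysis was possible because no list gives a value for a single library. Read depth is unknown, so absent peaks may be peaks not called.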
